A study of Mus musculus with 2 samples.

Results

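Tuft cells are rare chemosensory cells of the intestinal epithelium, and 9 of their signalling genes were followed here by cell type and genotype. The parts of taste-like signalling were the receptors Tas1r3 and Sucnr1, the G protein subunits Gnat3 and Gng13, the phospholipases Plcb2 and Plcg2 and the cation channel Trpm5. The cytokine Il25 and the receptor subunit Il17rb were followed beside them. The genes were taken by symbol, and all 9 were among the 27998 genes of the count matrices. Single-cell RNASeq in droplets was done on the epithelium of the ileum, with 1 library for WT and 1 for Tipe0-/- mice, which the labels call TNFAIP8-/-. Both groups were of the C57BL/6 background, were 8 weeks old and were healthy, and the cells of 3 mice per genotype were pooled into each library. Tipe0 is the gene Tnfaip8, and the labels name no promoter or Cre that would limit its deletion to the epithelium. Because each genotype has 1 library, no test between the genotypes was possible. The 95% intervals given below describe the counting of molecules or of cells, leaving out any variation from mouse to mouse. Those of summed molecules and of their ratios also leave out variation from cell to cell, and can be too narrow for that reason.

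In a taste cell or a tuft cell, a luminal compound binds a G protein-coupled receptor, the released G protein βγ subunits activate a phospholipase C, and the inositol trisphosphate it makes empties calcium stores and opens TRPM5. In the small intestine, tuft cells that sense succinate from microbes in this way release IL-25, which acts on group 2 innate lymphoid cells through a receptor that contains IL-17RB. The interleukin 13 of these lymphoid cells then acts on the crypt so that more tuft and goblet cells are formed.

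The WT library held 3402 cells and the Tipe0-/- library 2006, with medians of 7760 and 7307.5 unique molecular identifiers (UMIs, each 1 captured mRNA molecule) per cell, and 9 cell barcodes occurred in both libraries. The targeted gene, Tnfaip8, had 372 UMIs in the WT and 57 UMIs in the Tipe0-/- library, and which part of it is deleted is not given in the sources used here. The 2 libraries were clustered together on 1933 genes that included none of the 9. Of 19 clusters, 1 met the tuft cell markers, with 16 of 16 markers in at least 10% of its cells and at least 1.5 times as often as in other cells, and it is called tuft-like. Among its leading genes were Fabp1, a fatty acid binding protein that was also on the enterocyte list, and the tuft cell genes Dclk1, Rgs13 and Sh2d6. This cluster took up 4.03% of the WT library (137 cells, 3.39 to 4.74%) and 2.14% of the Tipe0-/- library (43 cells, 1.56 to 2.88%). In points of percent, Tipe0-/- minus WT came to -1.88 (-2.78 to -0.931). Its markers were lower in the Tipe0-/- cells as a part of all UMIs and level as UMIs per cell (below), so the size of the cluster is a description.

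Levels are given as counts per 1000000 UMIs of the same cells (CPM). The counts come from the 3′ ends of transcripts and are not scaled by length, so they compare cell types and genotypes for 1 gene and not the genes with each other.

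Of the receptors, Sucnr1 was found almost wholly in tuft-like cells and Tas1r3 was not detected in them. Sucnr1, the succinate receptor (ENSMUSG00000027762, chromosome 3 from 60081869 to 60087566 on the plus strand of GRCm38), had 57 UMIs in WT and 12 in Tipe0-/- tuft-like cells. These are levels of 32.4 CPM (24.5 to 41.95) and 14.9 CPM (7.69 to 26.0). In all other cells together it had 3 UMIs in the WT and 0 UMIs in the Tipe0-/- library. Sucnr1 was thus 393 times higher (128 to 1960) in tuft-like than in other WT cells, and at least 114-fold higher in the Tipe0-/- library, taking 3 counts over all other cells as the floor, while the counting interval of that fold began at 79.5. Tas1r3, a subunit shared by the sweet and umami taste receptors (ENSMUSG00000029072, chromosome 4 from 155859268 to 155863362 on the minus strand), had 0 UMIs in the tuft-like cells of both libraries. A count of 0 allows a share of up to 2.19% of the 137 WT and 6.98% of the 43 Tipe0-/- tuft-like cells with a UMI, which is a limit on cells with a UMI and not on cells that express the gene. The 15 WT and 5 Tipe0-/- UMIs of Tas1r3 lay in 15 and 5 other cells, 1 each, among them 4 and 2 cycling-like and 3 and 2 goblet-like cells, and no neighbouring classes in its order of levels differed beyond counting error.

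Among the members with a promoter sequence, Sucnr1 alone had an octamer motif in its window, the DNA element bound by POU factors such as POU2F3, a tuft cell regulator. The windows run from 250 bases before to 50 bases after the transcript start and come from RefSeq on GRCm38.p6, which had entries for 8 of the 9 genes, Il25 being the exception. The octamer ATGCAAAT, searched on both strands, was found in 1.74% of the 32851 windows, and its first 7 letters, ATGCAAA, in 4.63%, each in 1 of the 8 members. The other motifs were TATAAA, found in 13.6% of windows and in 0 of 8 members, and a STAT-type palindrome of TTC and GAA set 4 bases apart, found in 6.95% of windows and in 3 of 8 members, Plcg2, Gnat3 and Sucnr1. Counted by gene, as the members were, the shares over 27025 genes were 1.97% for ATGCAAAT, 5.24% for ATGCAAA, 15.7% for TATAAA and 8.01% for the palindrome. A match is a description of these letters and not of a binding site. The 250 bases before the start of Sucnr1 are shown with the octamer in capitals, 48 bases before the start, beside those of Trpm5, which held none of the 4 motifs. The coordinates are chr3:60081619-60081868 on the plus strand for Sucnr1 and chr7:143094643-143094892 on the minus strand for Trpm5, both written 5′ to 3′ on the strand of the gene.
Sucnr1: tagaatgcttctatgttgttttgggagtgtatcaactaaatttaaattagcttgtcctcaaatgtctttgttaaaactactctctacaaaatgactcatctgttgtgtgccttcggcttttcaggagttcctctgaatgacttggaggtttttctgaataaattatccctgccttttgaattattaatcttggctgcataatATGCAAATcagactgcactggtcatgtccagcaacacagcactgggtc
Trpm5: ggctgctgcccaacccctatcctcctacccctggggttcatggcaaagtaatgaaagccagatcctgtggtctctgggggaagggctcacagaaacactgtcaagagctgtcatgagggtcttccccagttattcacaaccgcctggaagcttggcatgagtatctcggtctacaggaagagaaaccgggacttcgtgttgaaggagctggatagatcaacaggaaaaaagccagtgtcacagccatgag

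Of the G protein subunits, Gng13 was far higher in tuft-like cells than elsewhere and Gnat3 was close to undetected. Gng13, the γ subunit of the taste G protein (ENSMUSG00000025739, chromosome 17 from 25717171 to 25719406 on the plus strand), had 236 UMIs in WT tuft-like cells, or 134 CPM (118 to 152), and 62 UMIs in Tipe0-/- tuft-like cells, or 76.9 CPM (58.9 to 98.5). The next class in the order was the enteroendocrine-like one, with 3 UMIs in each library, at 6.46 CPM in WT and 7.12 CPM in Tipe0-/- cells, below tuft-like cells by more than the counting error. Across all cells outside the tuft-like cluster Gng13 stood at 1.81 CPM and 1.04 CPM, which makes it 73.9 times higher in tuft-like cells in both libraries (56.0 to 98.6 and 45.5 to 124). Gnat3, the taste α subunit gustducin (ENSMUSG00000028777, chromosome 5 from 17962549 to 18019834 on the plus strand), had 4 UMIs in all, each in a different WT tuft-like cell, or 2.27 CPM (0.619 to 5.82). No UMI of Gnat3 was found in the Tipe0-/- library, where a count of 0 allows up to 3.72 CPM in tuft-like cells, so a difference between the genotypes was not detectable at this depth.

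The 2 phospholipases had different distributions. Plcb2, the β isoform of taste cells that G protein βγ subunits activate (ENSMUSG00000040061, chromosome 2 from 118707517 to 118728438 on the minus strand), had 71 UMIs in WT tuft-like cells, or 40.3 CPM (31.5 to 50.9), and 24 UMIs in Tipe0-/- tuft-like cells, or 29.8 CPM (19.1 to 44.3). It was 66.7 times (40.8 to 113) and 62.5 times (29.4 to 141) higher there than in all other cells. The WT tuft-like cells were above the next class, enteroendocrine-like cells with 4 UMIs, by 2.07 on the log2 scale (0.81 to 4.14), whereas in the Tipe0-/- library the next class was lymphocyte-like cells with 1 UMI in 14 cells, and the 2 did not differ beyond counting error. Without 1 cell with at least 4 tuft markers after thinning, the WT enteroendocrine-like cells had 3 UMIs of Plcb2, or 6.70 CPM (1.38 to 19.6).

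Plcg2, the γ isoform that tyrosine kinases activate in haematopoietic cells and that tuft cells also express (ENSMUSG00000034330, chromosome 8 from 117498291 to 117635142 on the plus strand), had 149 UMIs in WT tuft-like cells, or 84.6 CPM (71.6 to 99.4), and 56 UMIs in Tipe0-/- tuft-like cells, or 69.4 CPM (52.4 to 90.1). It was highest not there but in a cluster of 42 WT and 8 Tipe0-/- cells that was led by Pou2af1, Vpreb3 and Mzb1 and by the B cell genes Ms4a1 and Cd79a. In these cells Plcg2 had 33 UMIs, or 148 CPM (102.04 to 208), in the WT library and 6 UMIs, or 125 CPM (45.8 to 271), in the Tipe0-/- library. The WT level was above that of tuft-like cells by 0.83 on the log2 scale (0.22 to 1.36), and the Tipe0-/- levels did not differ beyond counting error. Plcg2 was also present at a low level in every other class of the WT library, from 2.51 CPM in Paneth-like cells to 12.7 CPM (9.94 to 15.9) in enterocyte-like cells, 14.7 CPM (11.02 to 19.2) in a class led by Syt2, Celf5 and Gsdmc3, and 17.6 CPM (7.06 to 36.2) in lymphocyte-like cells. Its tuft-like level exceeded that of all other cells 8.90 times (7.29 to 10.8) in WT and 9.66 times (7.00 to 13.2) in Tipe0-/- cells. For every UMI of Trpm5 there were 0.407 UMIs of Plcg2 in WT tuft-like cells and 4.12 in the other WT cells, and 0.483 and 5.53 in the Tipe0-/- library. The same figures for Gng13 were 0.645 and 0.786 in WT and 0.534 and 0.80 in Tipe0-/- cells. Gng13 and Trpm5 thus stood in a similar ratio inside and outside the cluster, whereas Plcg2 was about 10 times higher against Trpm5 outside it.

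Trpm5, the calcium-activated channel that depolarizes the cell at the end of the cascade (ENSMUSG00000009246, chromosome 7 from 143069153 to 143094642 on the minus strand), had 366 UMIs in WT tuft-like cells, or 208 CPM (187 to 230), and 116 UMIs in Tipe0-/- tuft-like cells, or 144 CPM (119 to 172). It was 90.0 times (70.8 to 116) and 111 times (73.5 to 171) higher there than in all other cells. The next class in both libraries was the enteroendocrine-like one, with 12.9 CPM (4.74 to 28.1) in WT and 2.37 CPM (0.0601 to 13.2) in Tipe0-/- cells, and tuft-like cells were above it by 3.89 (2.87 to 5.46) and 5.34 (3.41 to 11.2) on the log2 scale. Of the 6 enteroendocrine-like UMIs in WT, 4 came from 1 cell with at least 4 tuft markers after thinning, and without it the level was 4.47 CPM (0.541 to 16.1). Below these classes, no neighbours in the order of Trpm5 levels differed beyond counting error in the Tipe0-/- library.

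The cytokine and its receptor subunit were sparse. Il25 (ENSMUSG00000040770, chromosome 14 from 54932695 to 54935837 on the plus strand) had 6 UMIs in WT and 1 UMI in Tipe0-/- tuft-like cells, at 3.41 CPM (1.25 to 7.42) and 1.24 CPM (0.0314 to 6.91), and 2 and 1 UMIs in all other cells. Every UMI of Il25 was in a different cell. Il17rb (ENSMUSG00000015966, chromosome 14 from 29996135 to 30008896 on the minus strand) had 14 UMIs, or 7.95 CPM (4.35 to 13.3), in WT and 7 UMIs, or 8.68 CPM (3.49 to 17.9), in Tipe0-/- tuft-like cells, and 19 and 8 UMIs elsewhere. It was 15.2 times (7.06 to 32.0) and 25.05 times (7.73 to 79.0) higher in tuft-like than in all other cells. Il17rb exceeded the next class with a UMI, enterocyte-like cells, beyond counting error in the Tipe0-/- library. It did not in WT, where 1 UMI in 38 enteroendocrine-like cells gave the next level. That UMI came from the enteroendocrine-like cell with at least 4 tuft markers after thinning, and without this cell the other 37 had 0 UMIs. The 25 Tipe0-/- enteroendocrine-like cells had 0 UMIs, which allows up to 7.12 CPM. The counting interval of the tuft-like level over theirs began at 0.752-fold. Tuft-like and enteroendocrine-like cells thus did not differ beyond counting error in either library.

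**Figure D1:**
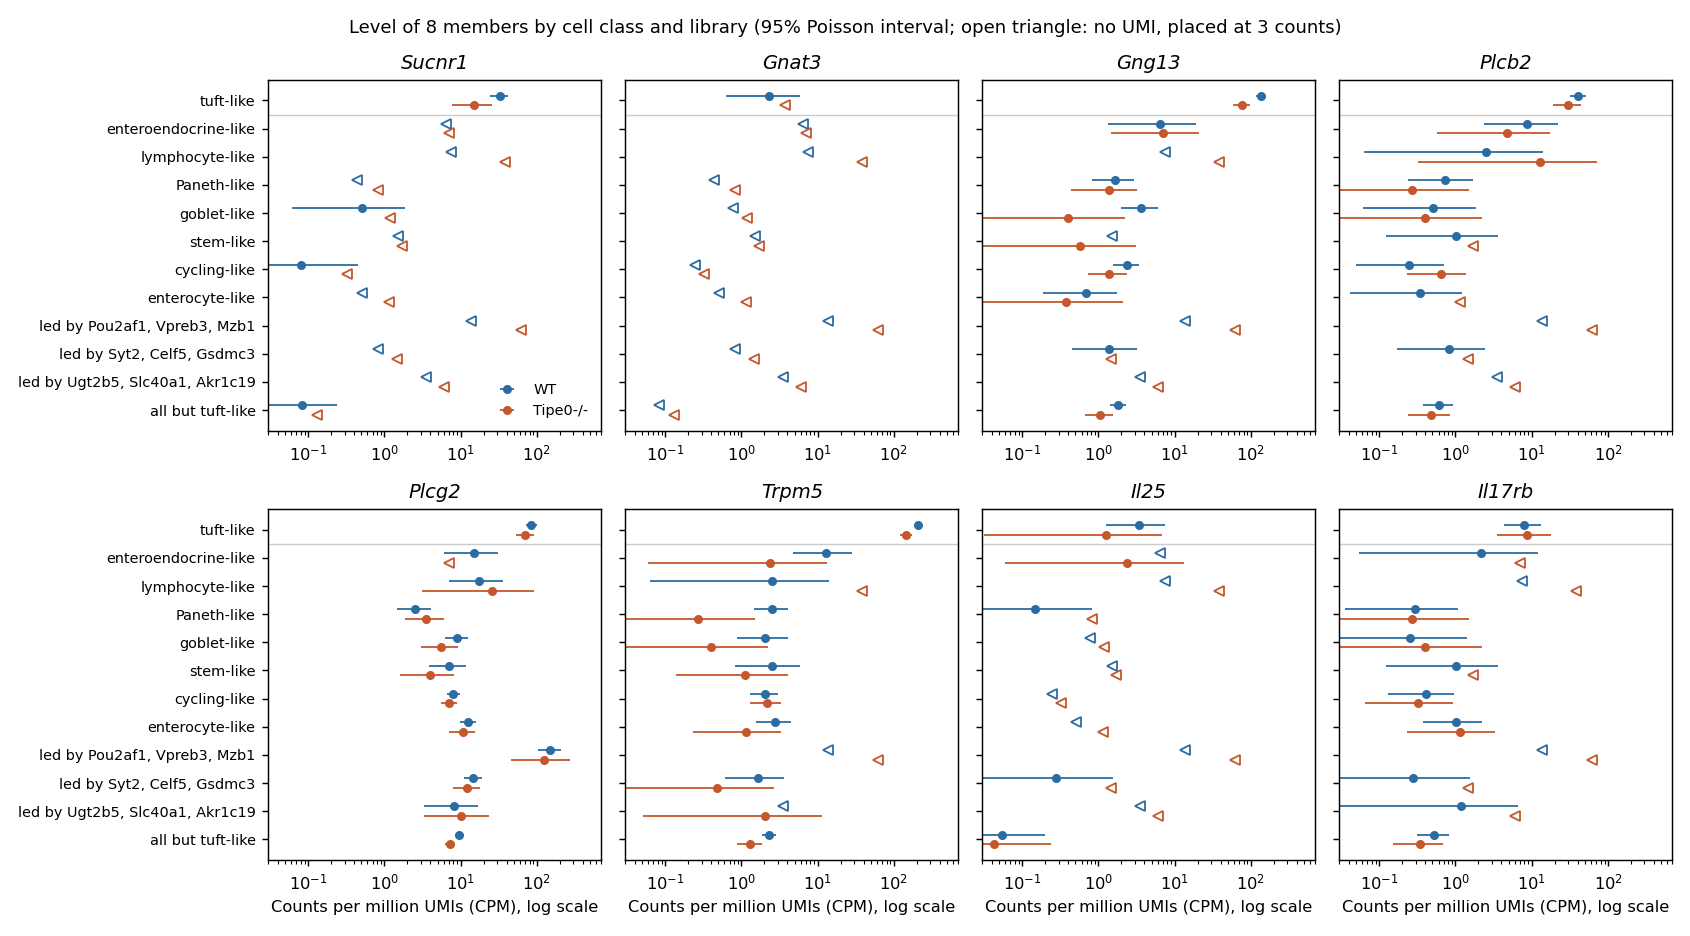
Level of 8 of the 9 genes in each cell class (rows) as CPM within that class on a log axis, WT in blue and Tipe0-/- in orange, with 95% Poisson intervals; open triangles mark classes with no UMI, drawn at the level of 3 counts. Tas1r3, which had 0 UMIs in tuft-like cells, is left out. Trpm5 and Gng13 stand far to the right in tuft-like cells (208 and 134 CPM in WT), and Plcg2 is highest in the cluster led by Pou2af1, Vpreb3 and Mzb1 (148 CPM in WT).

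Taken as a set, 61.8% of the 1460 UMIs of the 9 genes in the WT library (59.3 to 64.3%) and 53.2% of the 523 in the Tipe0-/- library (48.8 to 57.5%) lay in tuft-like cells, which held 4.62% and 3.38% of all UMIs. Without Plcg2 the shares were 78.1% and 73.8%, beside 79.7% and 73.7% for the 16 tuft markers. By gene, tuft-like cells held 95% of the WT UMIs of Sucnr1, 81.3% of those of Trpm5, 78.1% of those of Gng13, 76.3% of those of Plcb2, 42.4% of those of Il17rb and 30.1% of those of Plcg2. Of the 5 members whose UMIs came to 50 or more over the 2 libraries (Trpm5, Plcb2, Plcg2, Gng13 and Sucnr1), 5 had at least 5 times the CPM in tuft-like cells of that in other cells in both libraries, against 0.986% of the 11665 genes over that minimum. Sucnr1 and Plcb2 passed the minimum through tuft-like cells. Outside these cells they had 3 and 22 UMIs in WT and 0 and 11 in the Tipe0-/- library. The members were chosen as genes of tuft cells, and the cluster was built from other genes of the same cells. The count is therefore a description and not a test.

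In single tuft-like cells Trpm5 was the member found most often. At least 1 UMI of it was present in 86.1% of WT (79.2 to 91.4%) and 93.0% of Tipe0-/- tuft-like cells (80.9 to 98.5%), against 1.68% and 0.845% of enterocyte-like cells, a class that should lack it. Tuft-like cells were deeper, with medians of 11434 UMIs in WT and 15990 in Tipe0-/- cells against 6318 and 5530 in enterocyte-like cells. With each cell thinned at random to 3000 UMIs, which left out no cell, the shares for Trpm5 were 51.8% (43.1 to 60.4%) and 44.2% (29.1 to 60.1%), against 1.12% and 0% of enterocyte-like cells. Thinning lowered the shares of Gng13, Plcg2, Plcb2 and Sucnr1 as well. Gng13 was found in 61.3% and 51.2% of tuft-like cells unthinned and in 27.0% and 27.9% thinned. Plcg2 was found in 62.0% and 72.1% unthinned and 27.0% and 23.3% thinned, and was the member found most often in enterocyte-like cells (9.26% and 7.61% unthinned). Plcb2 was found in 13.1% and 9.30% and Sucnr1 in 14.6% and 9.30% of thinned cells. For all 9 genes, the thinned intervals of the 2 genotypes overlapped.

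**Figure D2:**
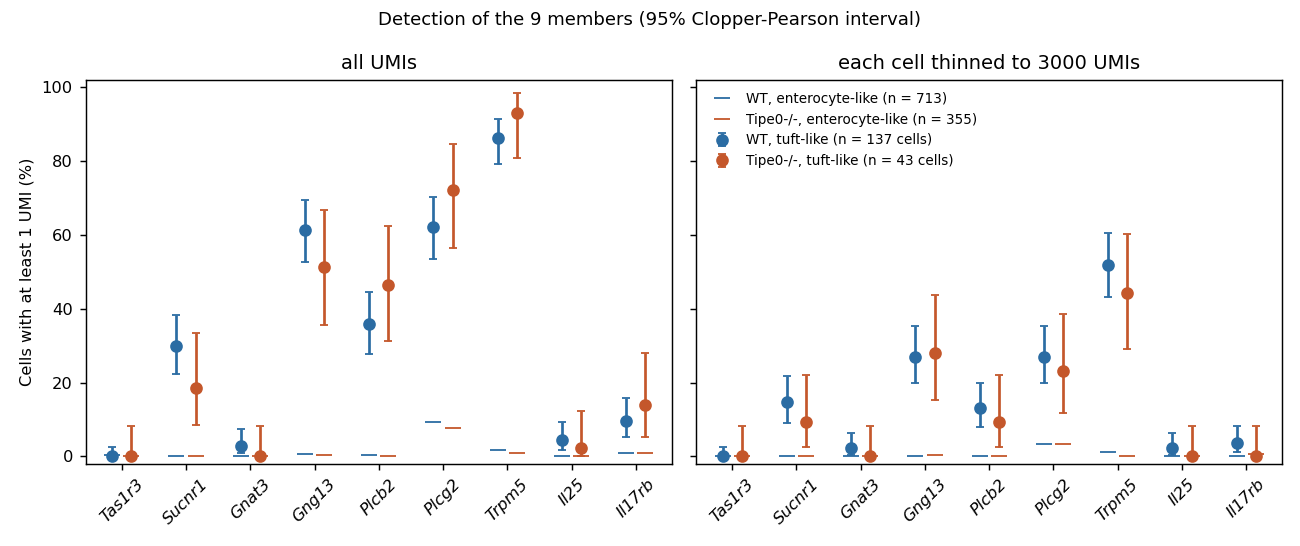
Share of cells with at least 1 UMI of each gene, with all UMIs (left) and with every cell thinned to 3000 UMIs (right); circles with 95% Clopper-Pearson intervals are tuft-like cells and short dashes enterocyte-like cells, WT in blue and Tipe0-/- in orange. Trpm5 is highest in both panels (51.8% and 44.2% after thinning), and the intervals of the 2 genotypes overlap for every gene in the right panel.

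The members were found together in the same cells. A tuft-like cell held UMIs of 2.92 of the 9 genes on average in WT and of 2.98 in the Tipe0-/- library, and of 1.42 and 1.14 after thinning, while other cells held 0.142 and 0.114 unthinned. At least 3 members were present in 67.9% of WT and 65.1% of Tipe0-/- tuft-like cells and in 0.459% and 0.255% of other cells. No cell held more than 5. Without thinning, most pairs of members in WT tuft-like cells met about as often as the product of their shares would give. Trpm5 and Gng13 were found together in 76 cells, beside 72.4 from the product. Plcb2 met Plcg2 in 36 cells, beside 30.4, and Sucnr1 in 11 cells, beside 14.7. After thinning, Plcg2 met Gng13 more often than the product, in 14 cells beside 10.0, and Sucnr1 in 8 cells beside 5.40. In Tipe0-/- tuft-like cells Plcb2 met Plcg2 in 11 cells, beside 14.4, without thinning. Trpm5 met Gng13 there in 8 cells, beside 5.30, after thinning. These counts describe 137 WT and 43 Tipe0-/- cells that differ in depth and carry no test.

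**Figure D3:**
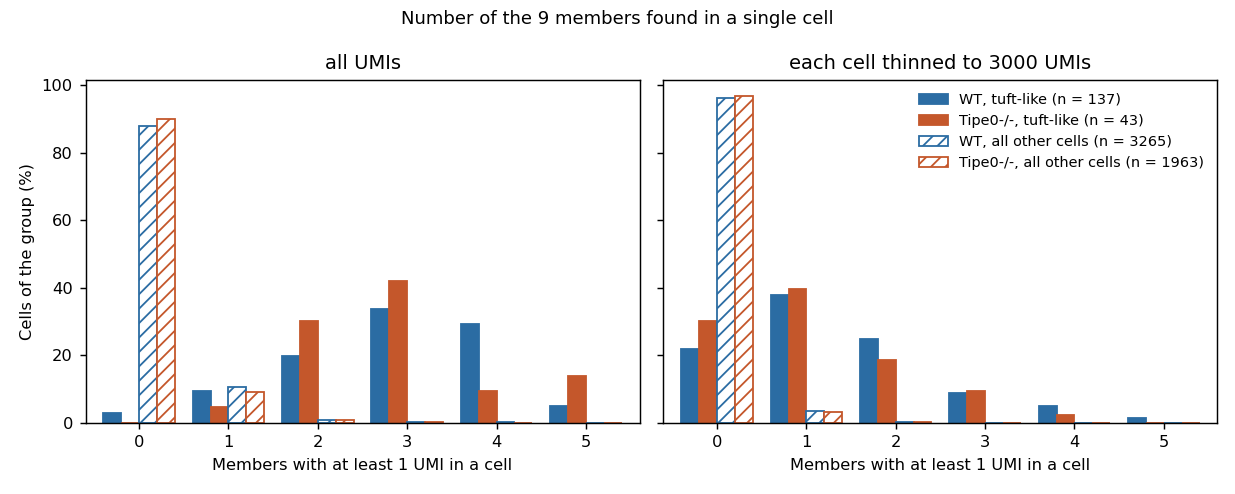
Number of the 9 genes with at least 1 UMI in a cell (horizontal axis) and the percent of cells with that number, for tuft-like cells (filled bars) and all other cells (hatched bars) of the WT (blue) and Tipe0-/- (orange) library, with all UMIs (left) and thinned to 3000 UMIs per cell (right). With all UMIs, tuft-like cells centre on 3 members, whereas 87.9% of the other WT cells have none.

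Tuft cells have been divided into a neuronal-type and an immune-type subtype, and the members were set against a list of 8 immune-type genes (Ptprc, Tslp, Rac2, Alox5, Ptgs1, Ffar3, Irf7 and Cd300lf). After thinning, 67 WT tuft-like cells had at least 2 of these genes and 70 had fewer. Trpm5 was found in 64.2% (51.5 to 75.5%) of the first and 40.0% (28.5 to 52.4%) of the second, and Sucnr1 in 23.9% (14.3 to 35.9%) and 5.71% (1.58 to 13.99%). Gng13 and Plcg2 were each found in 34.3% (23.2 to 46.9%) and 20% (11.4 to 31.3%). Plcb2 went the other way, with 7.46% (2.47 to 16.6%) and 18.6% (10.3 to 29.7%). The WT intervals of both groups overlapped for each of these members except Sucnr1. In the Tipe0-/- library 12 of 43 tuft-like cells had at least 2 immune-type genes, and Trpm5 was found in 58.3% of these and 38.7% of the rest, Gng13 in 50% and 19.4%, Plcg2 in 33.3% and 19.4%, Sucnr1 in 16.7% and 6.45%, and Plcb2 in 8.33% and 9.68%. These shares rest on few cells, with Sucnr1 in 2 of 12 (2.09 to 48.4%) and 2 of 31 (0.791 to 21.4%). For each of these members the intervals of both groups of Tipe0-/- cells overlapped. The cells were split by their own counts, so the comparison carries no test. Of the 8 immune-type genes, 7 were at least 5 times higher in tuft-like than in other cells in both libraries, against 0.986% of all genes. The exception was Irf7. Alox5, Ptgs1, Ffar3 and Cd300lf passed the minimum of 50 UMIs through tuft-like cells. Outside these cells they had 20, 23, 11 and 9 UMIs in WT and 6, 6, 11 and 7 in the Tipe0-/- library. This count is a description and not a test. Ptgs1 was also among the tuft markers and Ptprc among the lymphocyte markers. Whether the split followed subtypes or how clearly a cell showed tuft markers was not tested.

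Across 16 clusters with at least 20 cells in each library, taken as 32 points, the genes whose log2(CPM + 1) was most like that of Trpm5 included Avil and Bmx, with Pearson's r of 0.92 each. Plcb2 was most like Dclk1, Pygl and Pik3r5 (0.93 each), Gng13 most like Tspan6 (0.92), Pygl (0.91) and Rgs13 (0.90), and Sucnr1 most like Cd300lf (0.96), Kcnj16 (0.94) and Trib2 (0.94). The nearest genes to Plcg2 were further off, with 0.75 for Fabp1, 0.74 for Fyb and 0.72 for Htatip2. The cluster led by Pou2af1, Vpreb3 and Mzb1, where Plcg2 was highest, had 8 Tipe0-/- cells and was not among the points. The lymphocyte-like cluster, with 14 Tipe0-/- cells, was left out too, so the order for Plcg2 does not cover these cells. The points share libraries, depth and the tuft-like cluster, so r is a description only, and the 4 members with fewer than 50 UMIs were too sparse to be placed.

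In the whole libraries each of the 5 members over the count minimum stood lower in Tipe0-/- cells. Over the 11665 genes past the minimum of 50 UMIs, log2 ratios of Tipe0-/- over WT had a median of 0.15. Against this, the log2 ratio was -1.60 for Sucnr1 (-2.68 to -0.74), from 60 and 12 UMIs. For Gng13 it was -1.13 (-1.501 to -0.79), from 302 and 86 UMIs, and for Trpm5 -0.95 (-1.23 to -0.68), from 450 and 146 UMIs. The phospholipases were nearer to the median, with -0.72 for Plcb2 (-1.34 to -0.16), from 93 and 35 UMIs, and -0.48 for Plcg2 (-0.72 to -0.25), from 495 and 222 UMIs. Of these 5 genes, 5 were at least 1.5-fold below the median of all genes, against 6.9% of all genes, and 0 were above it. Plcb2 and Sucnr1 passed the minimum through the WT library, since they had 35 and 12 UMIs in the Tipe0-/- library. The other members were under the minimum, with 33 and 15 UMIs of Il17rb, 15 and 5 of Tas1r3, 8 and 2 of Il25 and 4 and 0 of Gnat3. A whole-library sum cannot tell fewer cells of a type from less RNA per cell, and the tuft-like share itself was lower in the Tipe0-/- library. Mitochondrial transcripts made up 6.59% of the WT and 8.56% of the Tipe0-/- UMIs, and 6.69% and 8.18% of those of tuft-like cells, and their part in the ratios was not tested. The 16 tuft markers were, like the members, all at least 1.5-fold below the median of all genes, with a median log2 ratio of -0.89.

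Within tuft-like cells the differences were smaller and, for several members, within the counting error. Log2 ratios in these cells had a median of 0.03 over the 8586 genes that reached 20 UMIs, and 6 of the 9 members were over that minimum. Gng13 had a log2 ratio of -0.79 (-1.23 to -0.39), Sucnr1 -1.08 (-2.16 to -0.21) and Trpm5 -0.53 (-0.85 to -0.23), each with an interval below the median of all genes. The intervals of Plcb2 (-0.42, -1.17 to 0.25), Plcg2 (-0.28, -0.76 to 0.17) and Il17rb (0.17, -1.42 to 1.53) held it. All these intervals treat the UMIs of 1 cell as independent. Single Tipe0-/- tuft-like cells held up to 7 of the 62 UMIs of Gng13 and 4 of the 12 of Sucnr1. Of the 6, 2 (Gng13 and Sucnr1) were at least 1.5-fold below the median, against 11.6% of all genes. Sucnr1 reached the minimum through the WT cells, with 57 and 12 UMIs, and Il17rb only as a sum of 14 and 7 UMIs. The number was 1 without the cells of highest doublet score and with cells named by markers, where Gng13 stood at -0.52 and -0.33 relative to the median, and 4 with variable genes chosen by mean and dispersion, where Trpm5 stood at -0.74 and Plcg2 at -0.61. It was 3 with resolution 1.2 and with no gene left out of the variable genes, where Trpm5 stood at -0.60 and -0.59 (-0.55 as reported). With thinned cells it was 3 of the 5 over the minimum, with Plcb2 at -0.71. The share of all genes at least 1.5-fold below the median was not computed for these other settings. In all other cells, 3 members were over the minimum of 50 UMIs and 2 of them, Trpm5 with -0.81 (-1.48 to -0.21) and Gng13 with -0.79 (-1.54 to -0.11), were at least 1.5-fold below the median of 0.17, against 6.6% of all genes, and 0 at least 1.5-fold above it, against 4.27%. Both passed the minimum through the WT library, since they had 84 and 66 UMIs there and 30 and 24 in the Tipe0-/- library. Plcg2, with 346 and 166 UMIs, had -0.40 (-0.68 to -0.13) and was less than 1.5-fold below the median.

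**Figure D4:**
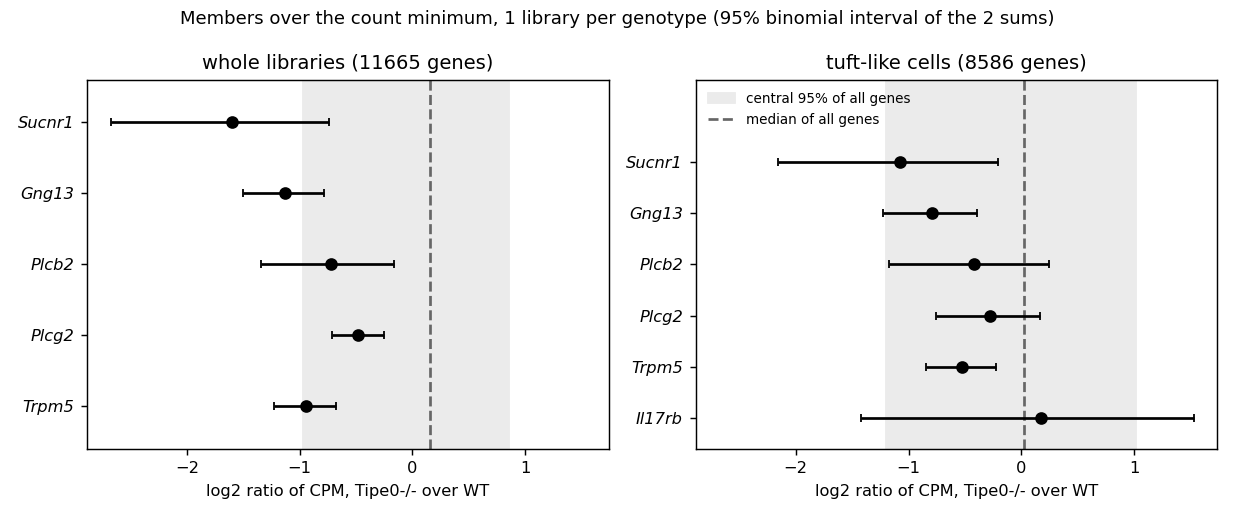
Log2 ratio of Tipe0-/- over WT for the members over the count minimum, in whole libraries (left, 11665 genes) and in tuft-like cells (right, 8586 genes), with 95% binomial intervals; the dashed line is the median of all genes and the grey band holds the central 95% of them. All 5 members on the left lie below the dashed line, and on the right only the intervals of Sucnr1, Gng13 and Trpm5 lie wholly below it.

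The difference within tuft-like cells depended on what the counts were set against. As UMIs per tuft-like cell, the 9 members together were nearly level, with 6.59 in WT and 6.47 in Tipe0-/- cells. Trpm5 had 2.67 UMIs per cell in WT and 2.70 in Tipe0-/-, Plcb2 0.518 and 0.558, Plcg2 1.09 and 1.30, and Il17rb 0.102 and 0.163. The values for Gng13 were 1.72 and 1.44 and for Sucnr1 0.416 and 0.279, and the log2 ratios per cell were -0.25 (-0.68 to 0.15) and -0.53 (-1.61 to 0.34). The Tipe0-/- tuft-like cells held more UMIs of all genes per cell (medians of 15990 and 11434), so a similar sum of member UMIs per cell was a smaller part of them. Set against the 16 tuft markers in the same cells, a scale chosen after these values were seen, there were 14.4 UMIs of the 9 members per 100 marker UMIs in WT and 14.2 in Tipe0-/- cells, a log2 ratio of -0.02 (-0.22 to 0.18) with an interval from the members' counts alone. The markers themselves had 3563 CPM in WT and 2423 CPM in Tipe0-/- tuft-like cells, and 0 of 16 were above the median of all genes. Per cell the markers were level, with 45.8 UMIs in WT and 45.5 in Tipe0-/- tuft-like cells and a log2 ratio of -0.01 (-0.08 to 0.06). Against the markers, Trpm5 stood at 0.03, Plcb2 at 0.14, Plcg2 at 0.28 and Il17rb at 0.73 on the log2 scale, and Gng13 at -0.24 and Sucnr1 at -0.52, with intervals that each held 0.

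Markers of other cell types also differed between the libraries in these cells. The 12 goblet cell markers summed to 5579 CPM in WT and 10464 CPM in Tipe0-/- tuft-like cells, with 0 markers at 0 in either. Those of lymphocytes, of which 12 of 15 were in the files, summed to 342 CPM and 40.9 CPM, with 1 and 7 at 0. Among those at 0 in the Tipe0-/- cells were the T cell genes Cd3e, Cd3g, Cd3d and Cd8a and the granzymes Gzma and Gzmb. Ptprc, which is on the immune-type tuft list as well, held 20 of the 33 UMIs there. The rest came from other lymphocyte markers. Those of Paneth cells summed to 2362 CPM and 2145 CPM and those of enterocytes to 1696 CPM and 976 CPM, with Apoa4 and Lct at 0 in both. Those of enteroendocrine cells summed to 94.9 CPM and 85.5 CPM, with 11 of 19 at 0 in each library, those of stem cells to 417 CPM and 531 CPM and those of cycling cells to 2379 CPM and 2979 CPM. After thinning, at least 4 of the 16 tuft markers were present in 116 of the 137 WT and 30 of the 43 Tipe0-/- tuft-like cells. The part of these values in the member ratios was not tested.

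Among 21 other genes of taste transduction, 11 had 0 UMIs in both libraries, among them all 7 bitter receptors listed (Tas2r105, Tas2r108, Tas2r126, Tas2r131, Tas2r135, Tas2r138 and Tas2r143), the sweet receptor subunit Tas1r2 and the ATP channel genes Calhm1 and Calhm3. Of the 7 over the minimum of 50 UMIs, 2 were at least 5 times higher in tuft-like than in other cells in both libraries. Of all genes over that minimum, 0.986% were. Ffar3, a receptor for short-chain fatty acids, had 61.4 CPM in WT and 34.7 CPM in Tipe0-/- tuft-like cells against 0.302 and 0.476 in other cells. It passed the minimum through tuft-like cells, with 11 UMIs in the other cells of each library. Itpr2, an inositol trisphosphate receptor, had 64.8 and 57.0 CPM against 9.98 and 9.96. Itpr3, the isoform of taste cells, was nearly as high outside the cluster, at 70.4 and 47.1 CPM against 51.6 and 45.1. In the whole libraries 0 of these 7 were above the median of all genes and 1 was at least 1.5-fold below it (against 6.9% of all genes). The latter, Ffar3, passed the minimum through the WT library. Within tuft-like cells 8 were over the minimum of 20 UMIs, 1 above the median, 3 at least 1.5-fold below it (against 11.6% of all genes) and 1 at least 1.5-fold above it (against 10.2%). Of the 3, Vmn2r26 reached the minimum through the WT cells, with 23 and 2 UMIs. The gene above, Entpd2, reached it only as a sum of 11 and 9 UMIs.

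Of 14 genes of the IL-25 and type 2 loop, 10 were over the minimum. In both libraries 3 of these were at least 5 times higher in tuft-like cells, against 0.986% of all genes. Alox5, the lipoxygenase that starts leukotriene synthesis, had 88.1 and 68.2 CPM in tuft-like cells of the WT and Tipe0-/- library, Hpgds, the prostaglandin D synthase of haematopoietic cells, 64.8 and 42.1 CPM, and Tslp, an epithelial cytokine, 17.6 and 7.44 CPM. Of these, Alox5 passed the minimum through tuft-like cells, with 20 and 6 UMIs in other cells. Il17ra, the partner of Il17rb in the IL-25 receptor, had 10.2 and 12.4 CPM in tuft-like cells and 10.4 and 9.44 CPM in others. Il13 had 0 UMIs. In the whole libraries 2 of the 10 were above the median of all genes and 3 at least 1.5-fold below it, against 6.9% of all genes. Of the 3, Tslp passed the minimum through the WT library. In tuft-like cells 5 of 11 were above the median, 4 at least 1.5-fold below it (against 11.6% of all genes) and 1 at least 1.5-fold above it (against 10.2%). Of the 4, Tslp, Chat and Tnfaip3 reached the minimum through the WT cells. They had 31, 27 and 38 UMIs there and 6, 7 and 8 in Tipe0-/- tuft-like cells.

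Of 32 relatives of the members, 20 were over the minimum and 0 were at least 5 times higher in tuft-like than in other cells in both libraries. This is near the share over all genes, 0.986%. Gnai2, a broadly expressed inhibitory α subunit, had 399 and 274 CPM in tuft-like cells and 145 and 120 CPM in others. Plcb3 had 155 and 135 CPM in tuft-like cells and 117 and 136 CPM in others, and the γ subunit Gng5 had 1071 and 957 CPM against 784 and 785. Gnai1, with 41 UMIs in all and so under the minimum, had 16.5 and 4.96 CPM in tuft-like cells and 0.0825 and 0.217 CPM in others. Of the 20, 9 were above the median of all genes in the whole libraries, 1 was at least 1.5-fold above (against 4.23% of all genes) and 1 at least 1.5-fold below it (against 6.9%). The gene below, Gng2, passed the minimum through the WT library, with 120 and 22 UMIs outside tuft-like cells.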

How the data were processed

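The authors loaded single-cell suspensions of the ileal epithelium on the Chromium System with 3′ chemistry, used Cell Ranger for alignment to mm10 and for the UMI counts, per the labels and the methods of the study, and deposited the raw UMI counts of each retained cell. The depth normalization described in the methods is not part of these counts. The labels name collagenase and dispase, the methods DNase I and Dispase. How reads from opposite-strand genes were treated is not given in the sources used here, and Trpm5, Plcg2, Gng13, Tas1r3 and Il17rb each overlap a gene on the other strand in the GENCODE annotation, whose gene IDs matched all 9 members.

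Clustering of both libraries together used Seurat 5.3.0 with R 4.3.3 (2000 vst variable genes, 14 principal components, resolution 0.8), leaving out the members and the 117 genes listed for the genotype comparison in Supplementary Data 2, which left 1933. Clusters were named from marker lists. No cell was removed. Scrublet through Scanpy 1.11.5 called 15 WT and 3 Tipe0-/- cells as doublets, 0.333% of all cells. These calls were not used, and the scores served only as a ranking. Summed UMIs have exact Poisson intervals, shares Clopper-Pearson intervals (their difference a Newcombe interval), and ratios intervals from the exact binomial distribution of 2 sums, with 0.5 added to each sum for the log2 ratio. A count of 0 is bounded at 3 counts. Cells were thinned to 3000 UMIs with numpy 2.4.6 in Python 3.11.15. A ratio is called at 1.5-fold from the all-gene median. Ratios and intervals were tested on simulated data. All 9 members, the pathway lists and the 3 nearest genes are named, except for 1 gene that is not reported here. The members and lists were chosen with earlier results of these data known.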

Additional observations from a re-analysis of the deposited data

How the results depend on the processing

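No paired analysis was possible because each genotype has 1 library and the labels give no replicate numbers, and for the same reason no library could be left out. The tuft-like share stayed lower in the Tipe0-/- library under every alternative run, by -1.78 to -2.002 percentage points. Naming cells by 4 of the 16 tuft markers in place of clusters gave a Tipe0-/- share of 1.55% and put 55.7% of the WT and 41.9% of the Tipe0-/- UMIs of the members in tuft-like cells. With variable genes chosen by mean and dispersion the Tipe0-/- value was 57.9% and the mean number of members per thinned WT tuft-like cell 1.23, and 30 principal components gave 58.2% for WT. Within tuft-like cells, 1 member, Il17rb, was above the median of all genes, and the number was 0 with thinned cells, without the 5% highest doublet scores and with cells named by markers, where Il17rb no longer reached the minimum of 20 UMIs and 5 members remained. It was also 0 with variable genes by mean and dispersion, where Il17rb stood at -0.07 relative to the median (0.15 as reported). The number of members at least 1.5-fold below the median in these cells, 2 as reported, was 1 without the 5% highest doublet scores and with cells named by markers, 3 with thinned cells, with resolution 1.2 and with no gene left out of the variable genes, 4 with variable genes by mean and dispersion, and 4 of 8 with no minimum. In the whole libraries it was 5 of 5 as reported, 8 of 9 with no minimum and 2 of the 3 over the minimum with thinned cells. The share of all genes called was not computed for these other settings. The members added without a minimum were sparse, with 4 and 0 UMIs of Gnat3, 8 and 2 of Il25 and 15 and 5 of Tas1r3 in the whole libraries. Against the summed tuft markers 4 of 6 members were above and 0 at least 1.5-fold below. There Trpm5, whose interval lay below the median as reported, reversed to 0.028, and Plcb2 and Plcg2 changed sign too. That scale and the recomputed counts of members below the median were chosen after seeing the data. The cause of the shifts with variable genes was not tested. Relative to the median, Gng13 stood at -0.33 in tuft-like cells named by markers (-0.82 as reported), and Trpm5 in whole libraries at -1.47 with thinned cells (-1.10 as reported). In all, 68 of 86 recomputed summary values and 92 of 97 single-gene values stayed within their error or within 1.5 times the reported count. These totals include runs without mitochondrial and the 20 most abundant genes in the sums, and runs scaled by the median ratio. Both leave values relative to the median unchanged by construction, so they are no check on them. Depth limits Gnat3, Tas1r3, Il25 and Il17rb, which had at most 48 UMIs each, and 1 library per genotype limits every comparison between the genotypes.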

Other observations

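Outside the tuft-like cluster, some cells held UMIs of at least 2 members. Of the 3265 other WT cells, 132 had a UMI of the 8 members without Plcg2, and 24 of these had at least 2 of the 8. Those 24 cells held 42.2% of the 211 UMIs found outside the cluster. They were picked by their member UMIs, so a larger share per cell was set by the choice. Without thinning, they had UMIs of a median of 8 of the 16 tuft markers, against 13 in tuft-like cells and 0 in cells with 1 member. These groups were not matched for depth, and the part of depth in the marker numbers was not tested. In the Tipe0-/- library 49 of 1963 other cells had a UMI, and 14 cells with at least 2 members held 51.9% of 79 UMIs, with a median of 7 tuft markers. Of these cells 5 and 3 were among the 5% with the highest doublet scores. After thinning, at least 4 tuft markers were present in 4 WT cells and 1 Tipe0-/- cell outside the cluster. Those cells held 14 of the 211 WT and 0 of the 79 Tipe0-/- UMIs.

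A list of neuronal-type tuft cell genes (Nradd, Nrep, Rgs2, Ninj1, Plekhg5 and Uchl1) split the WT tuft-like cells into 68 with at least 1 of them and 69 with none after thinning. Gng13 was found in 38.2% (26.7 to 50.8%) of the first and 15.9% (8.24 to 26.7%) of the second, Plcg2 in 36.8% (25.4 to 49.3%) and 17.4% (9.32 to 28.4%), Trpm5 in 61.8% (49.2 to 73.3%) and 42.03% (30.2 to 54.5%), Sucnr1 in 19.1% (10.6 to 30.5%) and 10.1% (4.18 to 19.8%) and Plcb2 in 16.2% (8.36 to 27.1%) and 10.1% (4.18 to 19.8%). In WT, Trpm5, Gng13, Plcg2 and Sucnr1 thus had the higher share on the side with more list genes both in this split and in the split by immune-type genes. In this split the WT intervals of both groups overlapped for each of these members and for Plcb2. In the Tipe0-/- library, where 15 cells had at least 1 of the genes, Gng13 was found in 46.7% of these and 17.9% of the other 28, and Sucnr1 in 20% and 3.57%. Plcg2 was found there in 33.3% and 17.9% and Plcb2 in 13.3% and 7.14%, while Trpm5 was nearly level, with 46.7% and 42.9%. These shares rest on few cells, with Sucnr1 in 3 of 15 (4.33 to 48.1%) and 1 of 28 (0.0904 to 18.3%). For each of these members the intervals of both groups of Tipe0-/- cells overlapped. The cells were split by their own counts, and no test was made. Of the 6 listed genes, 5 were over the count minimum for whole libraries. Of these, 1 (Nrep) was at least 5 times higher in tuft-like than in other cells in both libraries, against 0.986% of all genes. The same folds in WT and Tipe0-/- cells were 8.29 and 2.85 for Rgs2 and 1.78 and 0.867 for Ninj1. Uchl1 had 0 UMIs in tuft-like cells of both libraries. Whether the split followed a tuft cell subtype was not tested.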
